A study of Mus musculus with 36 samples.

Results

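The comparison described here set Ndufs4 knockout (KO) mice against wild-type (WT) mice that had all received CP2 and carry the letter M in their titles. Its members were chosen by the sample titles: 5 KO samples (L266, L291, L292, L298 and L299) and 5 WT samples (L259, L262, L263, L267 and L289), 10 of the 36 samples in the series. All 36 mice were 37 to 45 days old and were gavage fed for 3 days with CP2, a small molecule that inhibits mitochondrial complex I, or with vehicle. The other samples used below were the KO and WT groups with CP2 and the letter F (5 each) and the KO and WT groups with vehicle and the letter M (3 each). The knockout allele, the strain, the dose of CP2 and the meaning of the letters are not given in the labels. Every sample is labelled brain, while hippocampus and cortex are named in the design text of the series, so which part of the brain a sample holds is not known from the labels. PolyA-selected RNA was sequenced and counted per gene.

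Complex I oxidises NADH and passes the electrons to ubiquinone, and it is built from subunits encoded in the nucleus and in mitochondrial DNA. Ndufs4 encodes a small nuclear subunit of the arm that binds NADH. Mice without it develop an early brain disease that resembles Leigh syndrome, in which microglia and astrocytes become reactive in affected regions. Microglia are the resident immune cells of the brain. When they respond to damage they raise a gene programme of lipid and phagocytic receptors, lysosomal proteases and antigen presentation, and interferons raise another programme of antiviral genes. In tissue RNA, fewer cells of a type and less RNA per cell cannot be told apart.

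Gene counts came to a mean of 6.57e+07 ± 1.31e+07 in the 5 KO samples and 5.41e+07 ± 1.32e+07 in the 5 WT samples (SD), with a range of 4.61e+07 to 8.86e+07 over the 10. The share of reads placed outside annotated genes differed between the groups. It was 5.18, 7.41, 7.17, 9.06 and 7.80% in L266, L291, L292, L298 and L299, and 11.1, 12.8, 13.2, 9.05 and 11.2% in L259, L262, L263, L267 and L289. The KO mean was 7.33 ± 1.40% and the WT mean 11.5 ± 1.64%, and only L298 and L267 met (exact two-sided permutation test, p = 0.0159, adjusted over 4 such tests 0.0317). With vehicle the order was the other way round, at 12.1 ± 0.885% in 3 KO M samples and 10.2 ± 1.22% in 3 WT M samples. This share moves with the genotype here, so counts are given below also with it as a covariate. Several libraries stood apart. L291 had 47.3 CPM (counts-per-million) of Xist, the RNA of the inactive X chromosome, where the other 9 samples had at most 0.355 CPM and the F samples with CP2 at least 538 CPM. It had Ddx3y, a gene of the Y chromosome, at 80.8 CPM, within the 61.8 to 84.5 CPM of the 10 samples. L291 and L292 also held the highest levels of Tph2 and Slc6a4, genes of serotonin neurons, described further down. L266 had 1.01% of its counts in 1 gene without a symbol, ENSMUSG00000119584, which took 4.79 to 5.87% in the other KO samples. In the F samples with CP2 this gene took 1.06 to 1.61% in KO and 0.856 to 1.48% in WT. L298 had 175 CPM of Ttr, a marker of choroid plexus, against 1493 to 2566 CPM in the other KO samples and 667 to 1736 CPM in WT. Results are therefore given also without L266 and L291, and the part that these libraries or the share of reads outside genes play in a result was not tested except where a value is given.

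Of 25601 genes tested, 2558 (9.99%) differed between KO and WT at an adjusted p under 0.05, 1217 (4.75%) higher and 1341 (5.24%) lower in KO. A gene is described as called, risen or fallen below only where it passed this threshold, in edgeR's quasi-likelihood test with a coefficient for each of the 8 groups and Benjamini-Hochberg adjustment over all tested genes. The changes were mostly small: the median absolute log2 fold change of the called genes was 0.45 and the lowest 0.16. An absolute log2 fold change of at least 1 was seen in 432, of which 116 were higher and 316 lower. The samples of the groups did not overlap in 1768 of the called genes (69.1%) and in 11.1% of all tested genes. The number called was 1465 without L262 and 1649 without L263, and 1247 genes were called in the fit of all samples and in all 10 fits that each left out 1 library. It was 1278 without L266 and L291 (1234 of them also called with them), 5.02% of 25439 tested, with 2.39% higher and 2.63% lower. With the above share as a covariate it was 862 (620 also called without it), 3.37% of the tested genes, with 1.52% higher and 1.85% lower. With 2 surrogate variables as covariates, estimated from the counts, it was 2627 (10.3%), with 4.66% higher and 5.6% lower. Of these, 1866 were also called without them. Among only the 16 M samples it was 3892, and with the share as a covariate as well it was 45. Of the 2558 genes, 453 were called in every leave-one-out fit, with the covariate and without L266 and L291. Here and below, the covariate means this share in the fit of all 36 samples, unless the 16 M samples are named.

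Values per sample are given below always in the order L266, L291, L292, L298 and L299 for KO and L259, L262, L263, L267 and L289 for WT, in CPM. Means are given with the SD over 5 samples per group, and fold changes are KO over WT. Gene lists were read by the number of members called in each direction and by their median log2 fold change, beside a median of 0.0005 over all tested genes. The numbers called stand beside 4.75% higher and 5.24% lower over all tested genes.

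**Figure D1:**
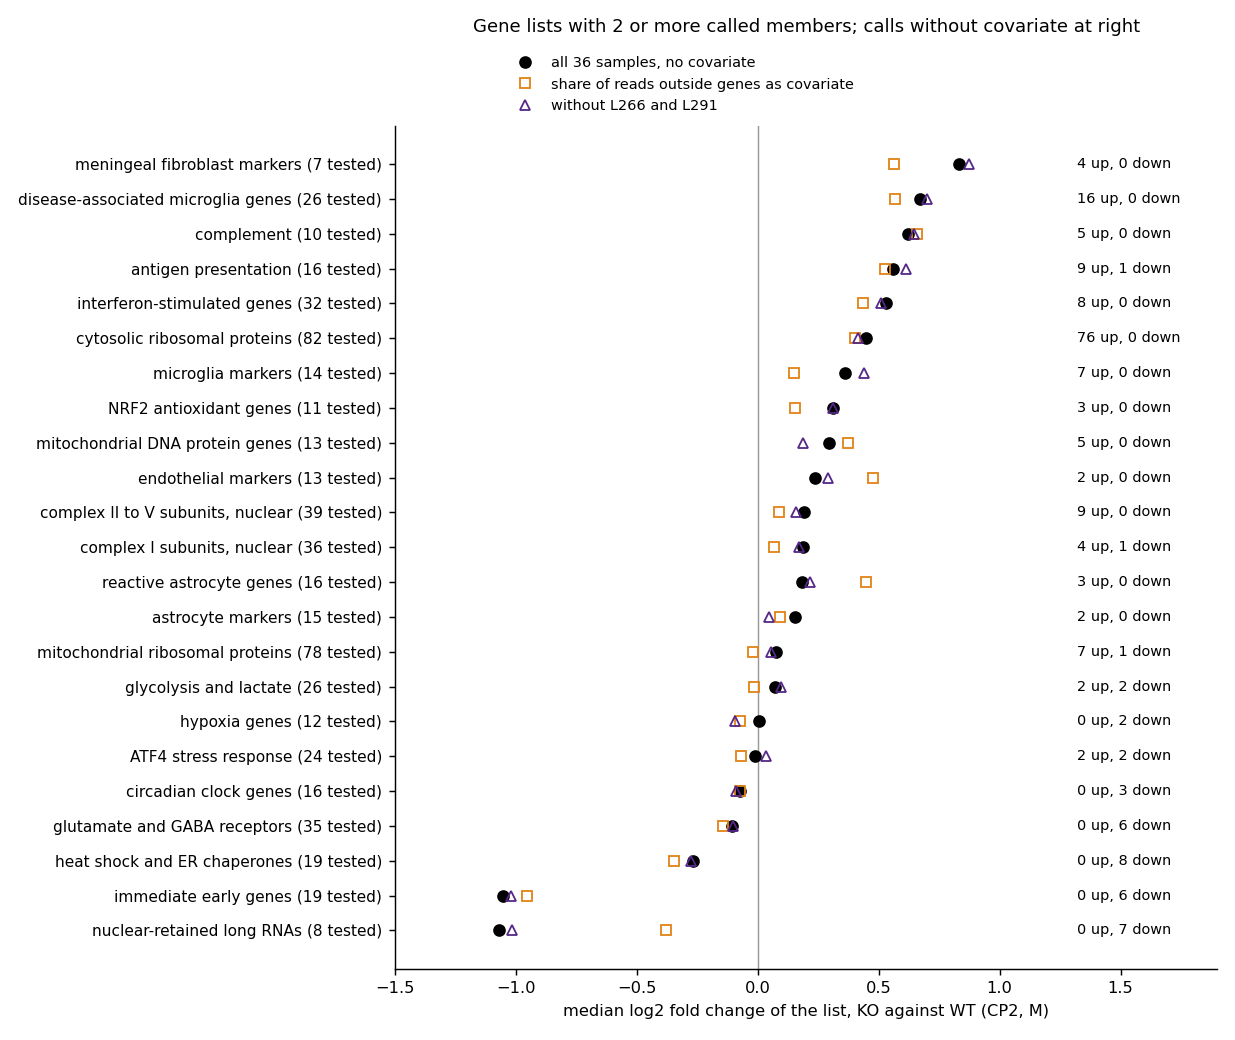
Median log2 fold change (x axis, KO over WT, CP2, M) of each gene list with 2 or more called members, in the fit of all 36 samples (black circles), with the share outside genes as covariate (orange squares) and without L266 and L291 (purple triangles). The numbers of members called higher and lower in the first of these fits stand at the right. Lists of microglial, antigen presentation, complement and ribosomal genes lie to the right of 0, and those of immediate early genes and nuclear-retained RNAs near -1 without the covariate.

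The targeted gene came first as a check of the labels. Ndufs4 (ENSMUSG00000021764) had 39.1, 35.8, 36.9, 29.6 and 36.7 CPM in KO and 43.6, 45.2, 42.3, 48.5 and 46.5 CPM in WT. The KO samples all lay below the WT samples, yet the transcript was still present in KO at 35.6 ± 3.60 against 45.2 ± 2.44 CPM (log2 fold change -0.34, SE 0.08, adjusted p = 0.00611). The exact two-sided permutation test on log2 CPM gave a difference of -0.35 (p = 0.00794, the smallest that 5 against 5 samples allow, adjusted over 4 tests 0.0317). With vehicle in M the same contrast was -0.66 on the log2 scale and with CP2 in F -0.56. Counts per gene carry no position within the transcript, so the level of intact Ndufs4 mRNA was not measured.

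Of the other nuclear subunits of complex I, 4 rose and none fell: over all 36 members, Ndufs4 included, 4 were higher, 1 was lower and the median log2 fold change was 0.19, with 33 members above 0. The 4 were Ndufb9, Ndufb4, Ndufb8 and Ndufa6, accessory subunits of which the first 3 belong to the membrane arm. Ndufb9 had 141, 124, 136, 106 and 142 CPM in KO and 99.3, 89.0, 94.6, 104 and 85.1 CPM in WT, with the groups apart (log2 fold change 0.46, SE 0.09, adjusted p = 0.000409). Ndufb4 (0.47, adjusted p = 0.0108), Ndufb8 (0.33, adjusted p = 0.0335) and Ndufa6 (0.24, adjusted p = 0.0452) overlapped between the groups. The call of Ndufb8 was lost without L266, L292, L299, L262, L263 or L289 (adjusted p up to 0.118), and that of Ndufa6 without L266, L291, L292, L299, L259, L262, L263 or L289 (adjusted p up to 0.193). The 5 calls among the 36 became 3 without L262, L263, L266, L289, L292 or L299, 11 without L267 and 14 without L298. With the covariate 1 subunit, Ndufb9, was higher and 1, Ndufs4, lower, and without L266 and L291 2 were higher and 1 lower. Among 18 assembly factors of complex I only Ndufaf4, which acts early in assembly, was called, at 23.8 ± 1.39 against 29.0 ± 1.66 CPM (log2 fold change -0.28, SE 0.08, adjusted p = 0.0125). Its KO samples all lay below its WT samples. With the covariate 2 assembly factors were called, both lower.

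Of the 13 protein genes of mitochondrial DNA, 5 rose and none fell, with a median log2 fold change of 0.30. The complex I subunit mt-Nd5 had 5213, 6319, 4772, 5098 and 4719.8 CPM in KO and 3380.1, 3489, 3398, 3166 and 4105 CPM in WT. The cytochrome oxidase subunit mt-Co1 had 20559, 21284, 17499, 19174 and 17786 CPM in KO and 13839, 14871, 14055, 12627 and 15445 CPM in WT. Both groups were apart for both genes, with log2 fold changes of 0.57 ± 0.10 (adjusted p = 9.11e-05) and 0.44 ± 0.09 (adjusted p = 0.000537), the error being the SE. mt-Nd6 (0.62, adjusted p = 0.000133) is encoded on the strand opposite to mt-Nd5, and whether counting used the strand is not given in the sources used here, so its reads are uncertain. mt-Cytb, of complex III, rose by less (0.35, adjusted p = 0.00474). The list summed between 42635 and 52568 CPM in KO and between 32755 and 39886 CPM in WT, without overlap, and 5 members were called with the covariate (mt-Nd1 in place of mt-Co2) and 3 without L266 and L291. For the nuclear subunits of complexes II to V, 9 of 39 rose and none fell (median 0.19). These included Cox4i1 of complex IV (559 ± 54.4 against 408 ± 48.5 CPM, 0.45, adjusted p = 0.000205) and Atp5g2 of ATP synthase (54.9 ± 4.23 against 45.4 ± 4.15 CPM, 0.27, adjusted p = 0.00321). For both genes L298 lay within the WT range, and with the covariate 1 member of the list, Cox4i1, was called. Its calls numbered 2 without L262 or L263, 3 without L266, L289 or L299, 5 without L292 and 15 without L298, and 2 without L266 and L291. Of 78 mitochondrial ribosomal proteins 7 rose, Mrpl2 (0.51, adjusted p = 0.00182) and Mrpl30 (0.25, adjusted p = 0.00585) among them, and Mrpl3 fell (-0.19, adjusted p = 0.0497), with a median of 0.08. The share called was 10.3%, near the 9.99% of all tested genes. These 8 calls became 3 without L262 or L263, 4 without L299 and 5 without L266, L289 or L292, and 3 without L266 and L291. With the covariate they numbered 0 (edgeR; 9 at an unadjusted p under 0.05), and the call of Mrpl3 was lost without L291, L292, L298, L259, L262, L263, L267 or L289 (adjusted p up to 0.159).

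Most cytosolic ribosomal protein genes rose. Of 82 tested, 76 rose and none fell, with a median log2 fold change of 0.45 and called values from 0.29 to 0.68. Over all 82 the values ran from -0.92 to 1.003, with 80 above 0. Rpl17 had 393, 388, 320.4, 309.8 and 368 CPM in KO and 244, 210.1, 220.5, 269.8 and 223 CPM in WT. Rps12 had 226, 223, 215.8, 166 and 241 CPM in KO and 139, 120.0, 132, 155 and 124 CPM in WT. For both genes the lowest KO sample was L298 and the highest WT sample L267, and the groups did not overlap (log2 fold change 0.61, SE 0.07, adjusted p = 4.93e-07 for Rpl17, and log2 fold change 0.68, SE 0.09, adjusted p = 2.02e-06 for Rps12). Rpl3 (536 ± 36.7 against 379 ± 30.3 CPM, 0.50, adjusted p = 2.02e-06) and Rps25 (211 ± 20.6 against 145 ± 14.3 CPM, 0.54, adjusted p = 2.02e-06) moved by similar amounts. The summed level of the list was 16629, 16107, 15610, 13098 and 16524 CPM in KO and 11760, 10519, 11210, 13002 and 10709 CPM in WT. L298 and L267 were almost equal, and the other 4 KO samples exceeded all WT samples. Without L266 and L291 61 members were called and with the covariate 52, all of them higher. Ribosomal protein genes have many processed pseudogenes, and how reads shared with them were counted is not given, so the level of a single member is uncertain. Eif3f, a subunit of the initiation factor that prepares the small ribosomal subunit, rose with them (164 ± 9.21 against 113 ± 9.10 CPM, log2 fold change 0.54, SE 0.06, adjusted p = 5.31e-08).

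Long RNAs that stay in the nucleus went the other way. Of 8 listed, 7 fell and none rose, with a median log2 fold change of -1.07. Meg3, an imprinted RNA expressed from the maternal chromosome, had 829.9, 1104, 780.4, 1289 and 1007 CPM in KO and 2304, 2805, 2496, 1953 and 2362 CPM in WT. Miat, a nuclear RNA of neurons, had 102, 107, 102, 141 and 124 CPM in KO and 230.2, 318, 310.9, 229.7 and 263.1 CPM in WT. No KO sample reached a WT sample in either (log2 fold change -1.25, SE 0.22, adjusted p = 0.000358 for Meg3, log2 fold change -1.23, SE 0.22, adjusted p = 0.00041 for Miat). Rian (412 ± 43.1 against 609 ± 42.7 CPM, -0.56, adjusted p = 2.02e-06) and Mirg (7.79 ± 2.20 against 23.2 ± 5.65 CPM, -1.58, adjusted p = 2.09e-06) come from the same imprinted region as Meg3, and as overlapping or read-through transcripts they cannot be treated as separate evidence. Malat1 fell from 2064 ± 374 to 1034 ± 396 CPM (-0.998, adjusted p = 0.0307), but had a log2 fold change of 0.01, adjusted p = 0.993, with the covariate. Its call was lost without L266, L291, L292, L299, L259, L262 or L263 (adjusted p up to 0.0907), and without L266 and L291 (-0.75, adjusted p = 0.19). The list summed 2355, 3476, 2745, 4122 and 3310 CPM in KO and 6379, 7325, 7327, 5335 and 6446 CPM in WT. Over the 10 samples the lowest sum belonged to L266, which also had the lowest share of reads outside genes, and within WT the lowest sum and the lowest share both belonged to L267. With the share as a covariate the median of the list was -0.38 and 4 members were called, Mirg, Rian, Meg3 (-0.49, adjusted p = 0.0164) and Miat (-0.48, adjusted p = 0.0418). Without L266 and L291 the median was -1.02, with 5 members called.

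**Figure D2:**
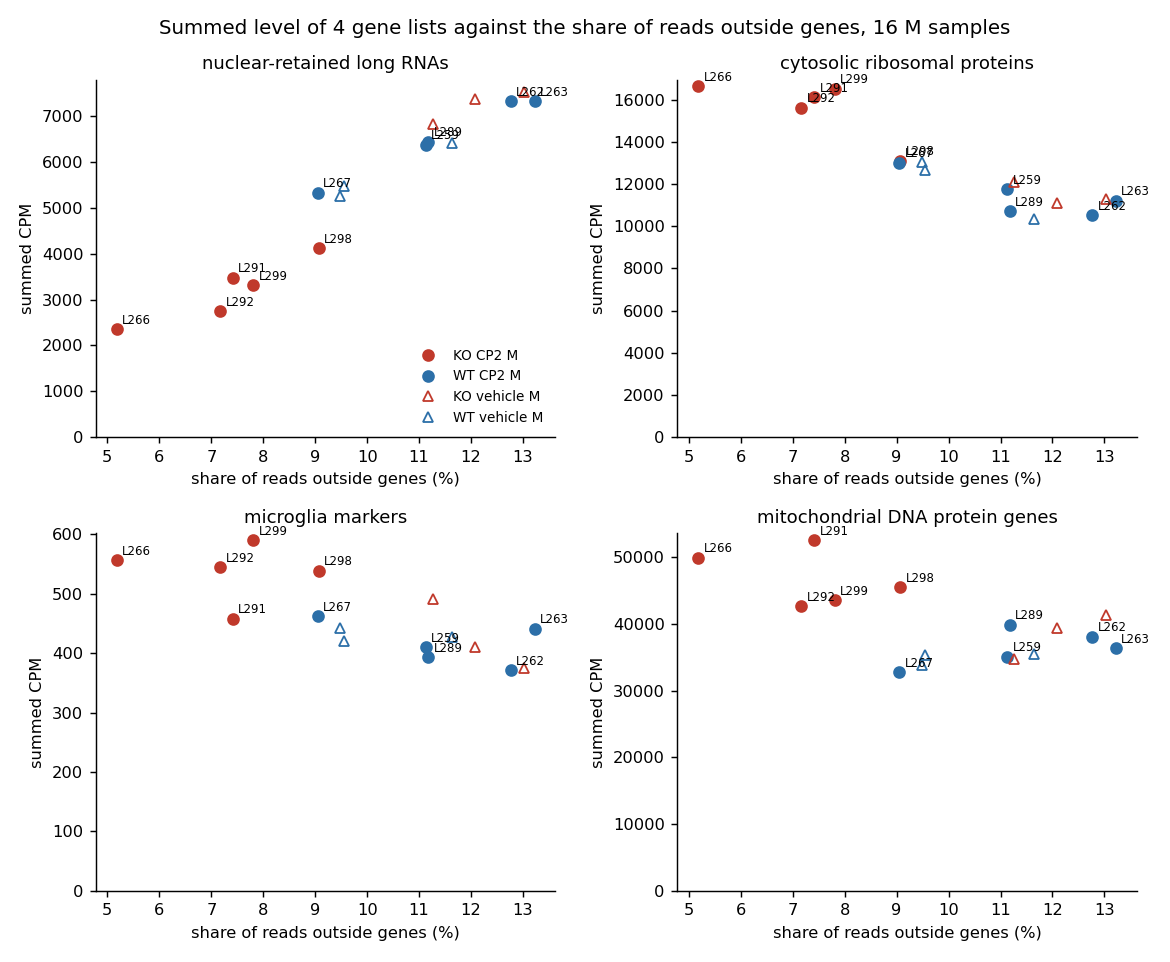
Summed level of 4 gene lists (y axis, CPM) against the share of reads outside annotated genes (x axis, percent) in the 16 M samples, filled circles for CP2 and open triangles for vehicle, red for KO and blue for WT, with the CP2 samples named. Samples with a small share have low sums of nuclear-retained RNAs and high sums of ribosomal protein genes, and KO samples with CP2 hold the 4 smallest shares; the lists share library and depth within a sample, and no test was made of the relation.

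Microglial genes rose in KO. Of 14 microglia markers, 7 rose and none fell, and all 14 had a log2 fold change above 0, with a median of 0.36. P2ry12, the purinergic receptor by which resting microglia sense nucleotides, had 51.6, 37.4, 42.9, 43.0 and 40.9 CPM in KO and 32.0, 26.9, 31.6, 34.0 and 30.0 CPM in WT. Gpr34, a lipid receptor, had 18.5, 14.8, 17.5, 14.6 and 14.5 CPM in KO and 10.2, 8.90, 10.7, 13 and 9.04 CPM in WT. The groups were apart for both (log2 fold change 0.48, SE 0.12, adjusted p = 0.00608 and log2 fold change 0.62, SE 0.15, adjusted p = 0.00561, in that order). Csf1r, the receptor for the growth factor on which microglia depend (119 ± 12.1 against 91.1 ± 7.66 CPM, 0.39, adjusted p = 0.00346), overlapped between the groups. The markers summed between 458 and 591 CPM in KO and between 372 and 462 CPM in WT. Their summed level reached its lowest KO value in L291, which lay below the 462 CPM of L267. Leaving out 1 library, the 7 calls became 4 without L262. With the covariate the median was 0.15 and 0 markers were called (edgeR; 3 at an unadjusted p under 0.05), whereas 7 were called without L266 and L291. The macrophage pore-forming gene Mpeg1 was outside the lists and was among the genes of smallest p (47.5 ± 5.68 against 26.2 ± 2.98 CPM, log2 fold change 0.86, SE 0.10, adjusted p = 1.32e-06), and was called with the covariate too (0.75, adjusted p = 0.000967).

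Genes of disease-associated microglia rose as well: 16 of 26 were called, all higher, with a median log2 fold change of 0.67. All 9 receptors and adaptors on the list were called, 6 of 11 lysosomal and lipid genes and 1 of 6 secreted factors. Ctss, the lysosomal protease cathepsin S, had 79.9, 61.6, 72.7, 80.4 and 89.4 CPM in KO and 42.7, 35.5, 47.4, 49.3 and 40.1 CPM in WT. Clec7a, the receptor dectin-1, had 1.86, 1.17, 1.35, 1.42 and 1.92 CPM in KO and 0.272, 0.203, 0.177, 0.574 and 0.337 CPM in WT. In both genes each KO sample exceeded each WT sample, by 1.79-fold in the mean of Ctss and 4.92-fold in the mean of Clec7a (log2 fold change 0.84, SE 0.12, adjusted p = 1.09e-05 and log2 fold change 2.30, SE 0.41, adjusted p = 0.000247, in that order). Clec7a was low throughout, with fewer than 2 CPM in every sample. The lipid receptor Trem2 (18.03 ± 4.15 against 10.5 ± 1.95 CPM, 0.77, adjusted p = 0.00111) and its adaptor Tyrobp (14.2 ± 2.69 against 8.33 ± 1.79 CPM, 0.77, adjusted p = 0.0028) both rose 1.71-fold, and L291 lay within the WT range for Trem2. The integrin subunit Itgax had the largest log2 fold change of the list, 2.58 (1.15 ± 0.526 against 0.191 ± 0.103 CPM, adjusted p = 0.00393). Calls numbered 8 without L262 and 10 without L263, L292 or L299, and 11 without L266 and L291. With the covariate 2 were, Ctss (0.68, adjusted p = 0.00472) and Clec7a (1.94, adjusted p = 0.0155), at a median of 0.57.

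**Figure D3:**
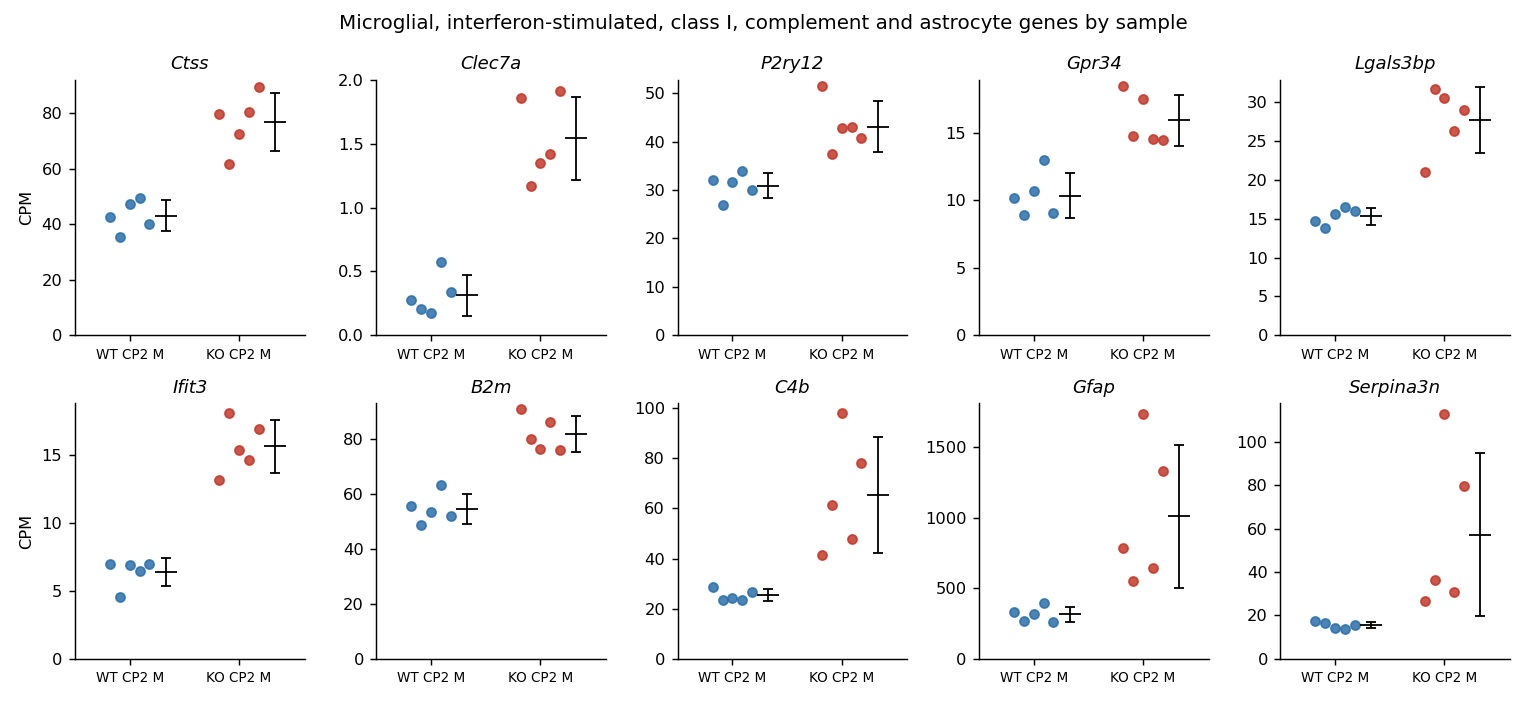
CPM (y axis, from 0) of 10 microglial, interferon-stimulated, class I, complement and astrocyte genes in the 5 WT (blue) and 5 KO (red) samples with CP2 and the letter M; bars give the mean and SD. In each panel all KO points lie above all WT points, and Gfap and Serpina3n are spread widely in KO, with L292 and L299 highest.

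Genes of antigen presentation are given by class. Of 11 genes for the class I pathway, which shows peptides from inside the cell, 7 rose and none fell (median 0.54). B2m, the light chain shared by class I molecules, had 90.9, 80.1, 76.4, 86.2 and 75.9 CPM in KO and 55.7, 48.7, 53.3, 63.4 and 52.2 CPM in WT. The heavy chain H2-D1 had 52.05, 52.9, 50.8, 52.8 and 60.2 CPM in KO and 40.6, 32.6, 32.7, 36.9 and 35.01 CPM in WT. Neither overlapped between the groups (log2 fold change 0.58, SE 0.10, adjusted p = 0.000103 and log2 fold change 0.60, SE 0.11, adjusted p = 0.000426, in that order). H2-K1 (0.54, adjusted p = 0.000611) and the loading factor Tapbp (0.42, adjusted p = 0.0032) rose as well, and H2 genes resemble one another closely enough that reads may be shared among them. Of 5 class II genes 2 rose (median 0.64), and Ciita, the transactivator of class II genes, fell (0.877 ± 0.323 against 2.42 ± 0.856 CPM, log2 fold change -1.46, SE 0.34, adjusted p = 0.00403). The difference between the classes was not tested. The 2 that rose were the invariant chain Cd74 (0.89, adjusted p = 0.0139) and H2-Ab1. Ciita lay at 0.460, 0.785, 1.12, 1.28 and 0.744 CPM in KO and 1.47, 3.64, 2.85, 1.84 and 2.30 CPM in WT, without overlap. Cd74 lost its call without L262 (adjusted p up to 0.0593), and had 0.86, adjusted p = 0.104, with the covariate. The adjusted p of Cd74 without L266 and L291 was 0.0524, and Ciita then had -1.21 (adjusted p = 0.0685). The whole list summed between 256.5 and 275 CPM in KO and between 169 and 199 CPM in WT, again without overlap. The 10 calls became 6 without L262. With the covariate 6 members were called, all higher, with Ciita at -1.37, adjusted p = 0.071. A total of 7 were without L266 and L291, all higher.

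Interferon-stimulated genes rose in part: 8 of 32 were called, all higher, with a median of 0.53 and 29 members above 0. Ifit3, an antiviral RNA-binding protein, had 13.1, 18.1, 15.3, 14.6 and 16.9 CPM in KO and 6.997, 4.54, 6.90, 6.45 and 6.98 CPM in WT. Its near-identical neighbour Ifit3b had 6.82, 7.16, 7.51, 7.77 and 10.4 CPM in KO and 4.99, 2.36, 3.25, 3.54 and 3.39 CPM in WT. KO means were 2.45 and 2.27 times the WT means without overlap (log2 fold change 1.30, SE 0.24, adjusted p = 0.000533 and log2 fold change 1.18, SE 0.25, adjusted p = 0.00168, in that order), and reads may be shared between the 2 genes. Lgals3bp, a secreted glycoprotein induced by interferon, had 21.1, 31.7, 30.6, 26.4 and 29.0 CPM in KO and 14.7, 13.8, 15.7, 16.5 and 15.999 CPM in WT (log2 fold change 0.86, SE 0.12, adjusted p = 5.03e-06). Ifit2 rose by less (16.4 ± 2.13 against 11.7 ± 1.16 CPM, 0.50, adjusted p = 0.00322). The list summed between 209 and 265 CPM in KO and between 159 and 179.7 CPM in WT. With the covariate 2 members were called, Lgals3bp (0.95, adjusted p = 0.000172) and the RNA sensor Ddx58, and Ifit3 had 0.90, adjusted p = 0.0607. There were 6 members called without L266 and L291, at a median of 0.51.

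The promoters of the 2 Ifit3 genes are shown because they carry the letters of the interferon-stimulated response element near the start. The sequences are from RefSeq, build GRCm38.p6, from 250 bases before to 50 bases after the annotated start: Ifit3 at chr19:34583279-34583578 and Ifit3b at chr19:34607707-34608006, both on the plus strand. Capitals mark matches to the element, written as GAAA, any 2 bases and GAAA again and searched on both strands; here the matches are on the strand not shown.
Ifit3: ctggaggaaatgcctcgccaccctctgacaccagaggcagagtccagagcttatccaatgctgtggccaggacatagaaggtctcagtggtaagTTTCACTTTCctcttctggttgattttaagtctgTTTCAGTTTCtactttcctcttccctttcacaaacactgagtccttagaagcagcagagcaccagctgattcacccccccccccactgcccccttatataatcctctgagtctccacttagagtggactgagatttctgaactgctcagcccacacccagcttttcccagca
Ifit3b: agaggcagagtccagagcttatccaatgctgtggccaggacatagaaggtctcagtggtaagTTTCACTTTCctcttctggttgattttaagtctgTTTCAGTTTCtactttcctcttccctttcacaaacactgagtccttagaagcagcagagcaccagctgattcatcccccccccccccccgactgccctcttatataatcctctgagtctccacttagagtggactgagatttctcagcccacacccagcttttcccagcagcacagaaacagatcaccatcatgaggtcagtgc
The matches begin at -156 and -122 from the start of Ifit3 and at -188 and -154 from that of Ifit3b. Among 23 members of the interferon list with a promoter in the table, 14 (60.9%) held a match, against 3.99% of 27025 promoters of all genes. The list was made of known interferon-stimulated genes, so this share is not a result of the comparison of KO and WT. Of the 7 called members with a promoter 5 held one: Bst2, Ddx58, Ifih1, Ifit3 and Ifit3b. A match describes the letters of the window and not whether a factor binds there.

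Complement genes rose too. Of 10, 5 rose and none fell, with a median of 0.62. C4b, a component of the classical cascade, had 41.6, 61.5, 98.1, 47.7 and 78.0 CPM in KO and 28.8, 23.6, 24.4, 23.3 and 26.8 CPM in WT. The KO samples were all above the WT samples and also far more spread, from 41.6 to 98.1 CPM (log2 fold change 1.37, SE 0.27, adjusted p = 0.00139). Itgam, a subunit of complement receptor 3 (8.67 ± 1.44 against 5.39 ± 0.403 CPM, 0.69, adjusted p = 0.0012), did not overlap either. C1qc, a chain of the recognition protein C1q (43.6 ± 5.72 against 29.3 ± 5.28 CPM, 0.58, adjusted p = 0.00292), did. The sum of the list was between 253 and 334 CPM in KO and between 148 and 202 CPM in WT. With the covariate 2 members were called, C4b among them (1.40, adjusted p = 0.0216), and without L266 and L291 4 were.

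Among astrocyte genes a few had large effects. Of 16 reactive astrocyte genes 3 rose, Gfap, Vim and Serpina3n, and the list's median was 0.18. Gfap, the intermediate filament of reactive astrocytes, had 787, 549.7, 1735, 646 and 1328 CPM in KO and 333, 265, 318, 395 and 263.3 CPM in WT. Serpina3n, a secreted protease inhibitor, had 26.5, 36.5, 113, 30.8 and 79.8 CPM in KO and 17.2, 16.6, 14.2, 13.8 and 15.8 CPM in WT. L292 and L299 were the highest KO samples for both, yet the lowest KO sample exceeded the highest WT sample in each (log2 fold change 1.68, SE 0.42, adjusted p = 0.00987 and log2 fold change 1.89, SE 0.48, adjusted p = 0.0106, in that order). The call of Serpina3n was lost without L292 (adjusted p up to 0.0523). Vim, another intermediate filament, rose in the same pattern (112 ± 47.1 against 44.7 ± 4.19 CPM, 1.33, adjusted p = 0.00645). With the covariate the values were 1.09, adjusted p = 0.256 for Gfap, 1.68, adjusted p = 0.134 for Serpina3n and 1.323, adjusted p = 0.0631 for Vim, and the 1 member of the list called was A2m, a protease inhibitor. Of 15 general astrocyte markers 2 rose, the glutamine synthetase Glul (1702 ± 122 against 1423 ± 129.8 CPM, 0.26, adjusted p = 0.0097) and the gap junction protein Gja1 (0.38, adjusted p = 0.0285), and their median was 0.15. The 2 calls became 1 without L262, L263, L289, L292 or L299. The call of Gja1 was lost without L292, L299, L262, L263 or L289 (adjusted p up to 0.0883). Without L266 and L291 3 reactive astrocyte genes were called and 0 astrocyte markers (edgeR; 4 at an unadjusted p under 0.05). With the covariate 0 astrocyte markers were called (edgeR), at a median of 0.09.

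Markers of other cells were read for what else the tissue held. Of 7 meningeal fibroblast markers 4 rose, with a median of 0.83, and they summed between 165 and 273 CPM in KO and between 92.5 and 156 CPM in WT. Col3a1, a fibrillar collagen chain (20.9 ± 6.56 against 10.4 ± 2.10 CPM, 1.01, adjusted p = 0.0419), and the matrix proteoglycan Lum (5.30 ± 1.77 against 2.98 ± 0.492 CPM, 0.83, adjusted p = 0.0161) were among them. None of the 4 calls held in all 10 leave-one-out fits: Lum lost it without L292 or L259 (adjusted p up to 0.0904), Col3a1 and Col1a2 without L291, L292, L299, L259, L262, L263 or L289, and Col1a1 (1.05, adjusted p = 0.0485) without L266, L291, L292, L298, L299, L259, L262, L263 or L289 (adjusted p up to 0.152). The 4 calls became 0 without L259 or L292 and 1 without L262, L263, L289, L291 or L299. With the covariate 0 of the 7 were called (edgeR; 1 at an unadjusted p under 0.05). Of 13 endothelial markers Itm2a (63.8 ± 7.42 against 46.9 ± 2.03 CPM, 0.45, adjusted p = 0.00232) and the drug exporter Abcb1a (42.5 ± 1.12 against 29.7 ± 3.77 CPM, 0.51, adjusted p = 0.0255) rose. Abcb1a lost its call without L292, L299, L259, L262 or L267 (adjusted p up to 0.0648), and had 0.88, adjusted p = 0.00218 with the covariate, and the list had 1 without L259, L262, L267, L292 or L299. Of 16 oligodendrocyte markers only Mbp was called, a protein of compact myelin (5239 ± 1297 against 3981 ± 525 CPM, 0.40, adjusted p = 0.0475), with L291 below most WT samples. Its call was lost without L266, L292, L299, L262, L263 or L289 (adjusted p up to 0.164). Without L266 and L291 the calls were 2 for meningeal fibroblasts, 1 for endothelium, 2 for oligodendrocytes and 1 for their precursors. The 10 markers of blood leukocytes, 7 of which were tested, summed between 2.01 and 4.47 CPM in KO and between 1.21 and 1.99 CPM in WT with 0 called (edgeR). Their sums did not overlap, at 2.006 CPM or more in KO and 1.989 CPM or less in WT, and the 7 tested markers all had a log2 fold change above 0 (median 0.87), while the values of each overlapped. Precursors of oligodendrocytes, mural cells, choroid plexus, ependyma, red cells, excitatory neurons, and cortical, striatal, thalamic, hypothalamic, olfactory bulb and cerebellar markers had 0 called members each (edgeR). Over these lists and that of leukocytes, 13 of 89 tested members had an unadjusted p under 0.05, and DESeq2 called 3 (Enpp6, Lamp5 and Prkcd) and limma voom 1 (Bmp4). The 7 mural markers were all above 0 (median 0.31), and their sums did not overlap, at 239.1 to 267.5 CPM in KO and 185.8 to 217.2 CPM in WT. All 7 ependymal markers (median 0.66), 6 precursor markers (0.19), 6 red cell markers (0.30; -0.09 without L266 and L291) and 5 cerebellar markers (0.43) were above 0 too, as were 9 of 10 choroid plexus markers (0.48). With the covariate 2 mural, 3 endothelial and 1 leukocyte markers were called, all higher, at list medians of 0.51, 0.48 and 1.34. Oligodendrocyte markers then had 0 calls (edgeR), and the other lists with 0 calls above kept 0. How far a change in cell makeup contributes to the microglial and complement genes was not tested.

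Lists of neuronal identity differed in their medians. The median log2 fold change was -0.02 over 7 excitatory markers and 0.00 over 9 cortical layer markers, with Camk2a at 2381 ± 321.5 against 2592 ± 292.4 CPM (-0.12, adjusted p = 0.557) and the transporter Slc17a7 at 1143 ± 226 against 945 ± 83.1 CPM (0.27, adjusted p = 0.292). Of the 6 CA markers of the hippocampus Wfs1 rose, 156, 167, 175, 243 and 165 CPM in KO and 125, 91.7, 123, 112 and 128 CPM in WT (log2 fold change 0.65, SE 0.16, adjusted p = 0.00835), without overlap and with L298 highest. Of the 5 dentate gyrus markers Dsp fell (3.66 ± 1.35 against 11.6 ± 1.65 CPM, -1.66, adjusted p = 0.0427), a call lost without L266, L291, L292, L298, L259, L262, L263, L267 or L289 (adjusted p up to 0.0985). The dentate markers summed between 49.0 and 88.7 CPM in KO and between 83.2 and 110.2 CPM in WT, and 4 of 5 had a log2 fold change below 0. The dentate median was -0.68 and that of the CA markers -0.19. The 5 thalamic markers were all below 0 (median -0.35), 5 of 6 hypothalamic markers were above 0 (median 1.18), and the striatal median was 0.16. The interneuron list had 1 call, Htr3a (0.47, adjusted p = 0.0481), lost without L266, L291, L292, L298, L259, L262, L267 or L289 (adjusted p up to 0.152). With the covariate 0 members of the CA, dentate and interneuron lists were called (edgeR), so the call of Wfs1 was lost as well.

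Immediate early genes, which neurons switch on within minutes of activity, all had a log2 fold change below 0: 6 of 19 fell, none rose, and the median was -1.05. Arc, a regulator of glutamate receptor traffic at synapses, had 71.0, 31.0, 80.6, 42.8 and 41.0 CPM in KO and 182, 228.3, 343, 144 and 95.9 CPM in WT. Homer1, a postsynaptic scaffold with an activity-induced short form, had 133, 89.7, 120.3, 114 and 92.1 CPM in KO and 195, 229.7, 303.1, 179.6 and 148 CPM in WT. The transcription factor Egr3 had 93.7, 63.1, 60.0, 80.1 and 57.1 CPM in KO and 136, 163, 203, 129 and 112 CPM in WT. All KO samples lay below all WT samples in these 3 genes, and L263 had the highest level in WT each time. Homer1 was called in every leave-one-out fit (log2 fold change -0.94, SE 0.22, adjusted p = 0.00557). Egr3 (log2 fold change -1.07, SE 0.28, adjusted p = 0.0149) lost its call without L263 (adjusted p up to 0.0549), and Arc (log2 fold change -1.90, SE 0.61, adjusted p = 0.046) without L266, L291, L292, L298, L299, L259, L262 or L263 (adjusted p up to 0.134). Fosl2 (21.2 ± 4.19 against 49.1 ± 11.6 CPM, -1.21, adjusted p = 0.0175) lost its call without L299 or L263 (adjusted p up to 0.0583), and Nr4a3 (23.3 ± 3.50 against 48.4 ± 6.58 CPM, -1.05, adjusted p = 0.0313) without L291, L292, L298, L299, L262 or L263 (adjusted p up to 0.0771). The list summed between 469.7 and 745 CPM in KO and between 884 and 1886 CPM in WT, without overlap. The 6 calls became 1 without L263, 2 without L299 and 3 without L262, L291, L292 or L298. With the covariate 1 member was called, Homer1 (-1.30, adjusted p = 0.00702), at a list median of -0.95, and without L266 and L291 2 were, Homer1 and Egr3. The time between the last gavage and death is not given for single animals.

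**Figure D4:**
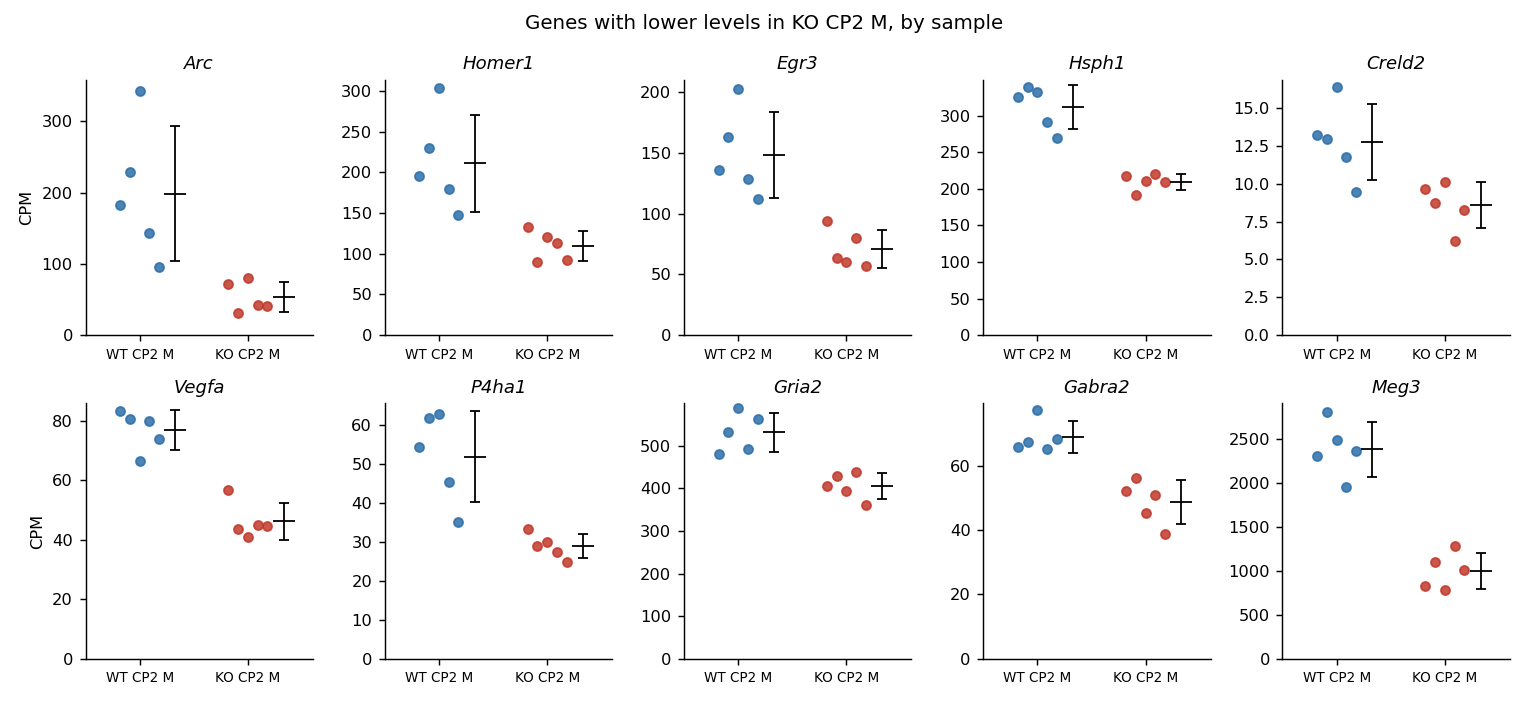
CPM (y axis, from 0) of 10 genes that fell in KO, in the 5 WT (blue) and 5 KO (red) samples with CP2 and the letter M, with mean and SD. All panels but that of Creld2 show the KO points below the WT points without overlap, and the WT points of Arc, Homer1 and Egr3 are spread more widely than the KO points.

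Genes for glutamate and GABA receptors fell in 6 of 35 cases and rose in none, with a median of -0.11 and 29 members below 0. Gria2, the AMPA receptor subunit that keeps the channel closed to calcium, had 404, 429, 393, 439 and 361 CPM in KO and 481, 531, 588, 492 and 563 CPM in WT. Gabra2, a subunit of GABA-A receptors, had 52.03, 56.2, 45.2, 50.9 and 38.7 CPM in KO and 65.7, 67.5, 77.4, 65.2 and 68.4 CPM in WT. The groups were apart in both (log2 fold change -0.39, SE 0.08, adjusted p = 0.00122 and log2 fold change -0.50, SE 0.12, adjusted p = 0.00759, in that order). Gria3 (-0.32, adjusted p = 0.0386) and the kainate receptor subunit Grik2 (-0.30, adjusted p = 0.0275) overlapped between the groups. These 6 calls became 2 without L262, L289, L292 or L299 and 3 without L263 or L291, and 2 without L266 and L291. Grik2 lost its call without L292, L299, L262, L263 or L289 (adjusted p up to 0.0918) and Gria3 without L291, L292, L299, L262, L263, L267 or L289 (adjusted p up to 0.129). With the covariate 1 member was called, the metabotropic receptor Grm3, and the values were -0.30, adjusted p = 0.0787 for Gria2 and -0.52, adjusted p = 0.0684 for Gabra2.

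Protein folding genes fell. Of 19 heat shock and endoplasmic reticulum chaperones 8 were called, all lower, with a median of -0.27 and 18 members below 0. Hsph1, a partner of Hsp70 in refolding, had 218, 191, 210.2, 219.9 and 209 CPM in KO and 326, 339, 333, 292.1 and 269 CPM in WT. The groups did not overlap (log2 fold change -0.57, SE 0.13, adjusted p = 0.00355), and the KO samples were close to one another. Creld2, induced by stress of the endoplasmic reticulum, had 9.67, 8.71, 10.1, 6.24 and 8.27 CPM in KO and 13.2, 12.98, 16.4, 11.7 and 9.42 CPM in WT. Its KO samples L266 and L292 exceeded L289 of WT (log2 fold change -0.57, SE 0.16, adjusted p = 0.0213). Hsp90b1 (237 ± 12.6 against 284.8 ± 13.9 CPM, -0.27, adjusted p = 0.0211) and the disulfide isomerase Pdia6 (78.2 ± 7.10 against 101 ± 14.0 CPM, -0.36, adjusted p = 0.0256) fell by less. Calls fell to 1 without L263, 2 without L262 or L299, 3 without L298, 4 without L259 and 5 without L266 or L292, and to 3 without L266 and L291. Only Hsph1 was called in all 10 leave-one-out fits. Creld2 lost its call without L298 or L263 (adjusted p up to 0.0961), Hsp90b1 without L298, L299, L262 or L263 (adjusted p up to 0.0597) and Pdia6 without L298, L299, L262 or L263 (adjusted p up to 0.0972). With the covariate 7 members were called, at a median of -0.35, with Hsph1 at -0.85, adjusted p = 0.00141. In the F samples with CP2 9 members fell.

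Of 12 hypoxia genes 2 fell and none rose, at a median of 0.01. Vegfa, the growth factor of blood vessels, had 56.9, 43.5, 40.9, 45.1 and 44.7 CPM in KO and 83.5, 80.8, 66.5, 79.9 and 73.9 CPM in WT. P4ha1, a prolyl hydroxylase of collagen, had 33.4, 29.0, 30.1, 27.4 and 24.9 CPM in KO and 54.3, 61.8, 62.8, 45.2 and 35.1 CPM in WT. Neither overlapped (log2 fold change -0.74, SE 0.09, adjusted p = 2.02e-06 and log2 fold change -0.84, SE 0.17, adjusted p = 0.00168, in that order), and both were called with the covariate, Vegfa at -0.79, adjusted p = 0.000143 and P4ha1 at -1.04, adjusted p = 0.00772. Of 11 NRF2 targets 3 rose and 10 had a log2 fold change above 0, at a median of 0.31. They were the quinone reductase Nqo1 (9.08 ± 2.74 against 4.39 ± 0.514 CPM, 1.05, adjusted p = 0.00101), the glutathione transferase Gsta4 (0.53, adjusted p = 0.000749) and the sulfiredoxin Srxn1 (0.31, adjusted p = 0.0243), whose call was lost without L298, L262 or L263 (adjusted p up to 0.0682). The 3 calls of the NRF2 list became 2 without L262 or L263, 4 without L259 or L289 and 5 without L267. With the covariate 1 NRF2 target was called, higher, at a list median of 0.15. With 2 surrogate variables 2 were higher and 1 was lower, at a median of 0.14. Without L266 and L291, 2 hypoxia genes and 2 NRF2 targets were called.

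The ATF4 stress response, which mitochondrial defects often induce, had 2 of 24 genes higher and 2 lower, with a median of -0.01. Psat1 and Psph, enzymes of serine synthesis, were the 2 that rose (0.27, adjusted p = 0.00444 and 0.30, adjusted p = 0.0269). Atf4 itself, the transcription factor, fell (80.1 ± 9.06 against 105 ± 8.66 CPM, -0.39, adjusted p = 0.0255), as did the secreted glycoprotein Stc2 (-0.63, adjusted p = 0.0312). Only Psat1 of these 4 was called in all leave-one-out fits. The 4 calls of the list became 1 without L262 and 2 without L259 or L292, and without L266 and L291 2, both higher. With the covariate 3 members of the ATF4 list were called, all lower, at a median of -0.07, so neither Psat1 nor Psph was called higher. With 2 surrogate variables 1 was higher and 3 were lower. Atf4 lost its call without L291, L298, L259 or L262 (adjusted p up to 0.0702), Psph without L292, L299, L262 or L289 (adjusted p up to 0.106) and Stc2 without L266, L291, L292, L259, L262, L263 or L267 (adjusted p up to 0.109). Of 26 genes of glycolysis and lactate handling, the phosphofructokinase Pfkp fell, with 198, 197, 217, 213 and 214 CPM in KO and 258, 262.9, 274, 258.8 and 257.3 CPM in WT and no overlap (log2 fold change -0.34, SE 0.06, adjusted p = 0.000267). Pfkfb3, which makes the activator of phosphofructokinase, fell too (-0.37, adjusted p = 0.0274), while Pdk1, the kinase that holds back pyruvate dehydrogenase, rose (0.36, adjusted p = 0.00573), and so did the lactate transporter Slc16a1 (0.38, adjusted p = 0.03). The list's 4 calls became 2 without L262, L263, L266 or L299, and 3 without L266 and L291. With the covariate 3 glycolysis and lactate genes were called, all lower, at a median of -0.02, so neither Pdk1 nor Slc16a1 was called higher. With 2 surrogate variables 2 were higher and 3 lower. Pfkfb3 lost its call without L266, L298, L299, L262 or L263 (adjusted p up to 0.106) and Slc16a1 without L266, L292, L299, L262, L263 or L289 (adjusted p up to 0.105).

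Of 16 clock genes 3 fell and none rose: Arntl, the activator of the loop (22.1 ± 1.84 against 29.7 ± 1.05 CPM, log2 fold change -0.43, SE 0.11, adjusted p = 0.00826), the repressor Per2 (-0.63, adjusted p = 0.0202) and Bhlhe40 (-0.43, adjusted p = 0.0268). Per2 had 24.4, 21.7, 29.6, 24.4 and 25.5 CPM in KO and 40.2, 43.7, 58.2, 26.2 and 26.5 CPM in WT. Its WT samples split into L259, L262 and L263 above 40 CPM and L267 and L289 within the KO range. The 3 calls of the list became 1 without L262 or L263, and 2 without L266 and L291. With the covariate 0 clock genes were called (edgeR), at a median of -0.07 in both fits. With 2 surrogate variables 2 were called higher and 1 lower, at a median of 0.06. The call of Per2 was lost without L291, L262 or L263 (adjusted p up to 0.104) and that of Bhlhe40 without L292, L299, L262 or L263 (adjusted p up to 0.0888). The E-box CACGTG stood in the promoters of 5 of the 14 clock genes with one in the table (35.7%) and in 8.09% of all, but not in that of Arntl. As the list was made of known clock genes, this share is not a result of the comparison either. The other lists held 1 call each. Zbtb16, induced by glucocorticoids, fell (30.0 ± 6.05 against 49.2 ± 13.03 CPM, -0.72, adjusted p = 0.00718; with the covariate -0.30, adjusted p = 0.46). Lss, an enzyme of cholesterol synthesis, rose (0.31, adjusted p = 0.0221) and lost its call without L298, L299, L262 or L263 (adjusted p up to 0.0815). The histone gene Hist1h2be fell (3.33 ± 0.633 against 6.57 ± 1.24 CPM, -0.98, adjusted p = 0.00708), 1 of 33 tested of 69 listed, in a family whose members share reads. With the covariate the cholesterol list had 0 calls (edgeR), and the histone list 1 higher and 1 lower.

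Among genes of any kind, those with the smallest p were Eif3f, the cytochrome b5 reductase Cyb5r3, Rpl17, Mpeg1 and Rpl3 on the higher side and Zgpat, Hnrnph1, Vegfa, Rian and L3mbtl1 on the lower side. Cyb5r3 had 91.6, 99.1, 104, 94.2 and 98.8 CPM in KO and 60.7, 55.9, 50.1, 63.9 and 54.6 CPM in WT (log2 fold change 0.77, SE 0.08, adjusted p = 5.42e-08). Zgpat, a zinc finger repressor, had 24.9, 28.9, 27.2, 31.0 and 31.0 CPM in KO and 50.6, 51.9, 52.6, 45.2 and 45.3 CPM in WT (log2 fold change -0.78, SE 0.08, adjusted p = 5.31e-08). Hnrnph1, a splicing factor, went from 186 ± 14.8 CPM in WT to 127 ± 8.42 CPM in KO (log2 fold change -0.55, SE 0.06, adjusted p = 4.09e-07). L3mbtl1, a reader of histone methylation, was lower by a factor of 2.01 (5.87 ± 1.13 against 11.8 ± 0.724 CPM, log2 fold change -1.01, SE 0.13, adjusted p = 2.02e-06). All 10 of these genes were called in every leave-one-out fit, with the covariate and without L266 and L291. None of their groups overlapped.

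The largest changes on the higher side, among called genes with a mean of at least 1 CPM and no overlap, began with 2 genes that were high in single samples. Slc6a4, the serotonin transporter, had 0.723, 38.6, 11.4, 2.21 and 0.665 CPM in KO and 0.335, 0.0507, 0.0221, 0.383 and 0.590 CPM in WT. Tph2, the enzyme of serotonin synthesis in neurons, had 3.45, 59.7, 14.7, 6.35 and 3.01 CPM in KO and 2.12, 0.938, 0.663, 1.53 and 2.63 CPM in WT. L291 and L292 held most of the signal, and the other 3 KO samples lay above the WT samples by far less. Their log2 fold changes were 5.31 (adjusted p = 0.0463) and 3.47 (adjusted p = 0.0183). The call of Slc6a4 was lost without L291, L292, L259, L262, L263, L267 or L289 (adjusted p up to 0.173), that of Tph2 without L291, L262 or L263 (adjusted p up to 0.134). Both genes are expressed in neurons of the raphe nuclei in the brainstem, which the labels do not list as collected. The calcium-binding genes S100a4 (2.23 ± 1.92 against 0.410 ± 0.190 CPM, 2.44, adjusted p = 0.00746) and S100a6 (25.1 ± 11.95 against 8.17 ± 1.49 CPM, 1.62, adjusted p = 0.00137) were highest in L292 and L299, the samples with most Gfap. Cyp2f2 (2.12, adjusted p = 0.00901), Cela1 (1.45, adjusted p = 7.14e-05) and Cdc42ep5 (1.40, adjusted p = 0.00594) completed the set with Serpina3n, Gfap and C4b.

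On the lower side the same limits gave mostly genes of low level. Ccdc188 had 0.542, 0.0730, 0.594, 0.310 and 0.174 CPM in KO and 2.12, 2.31, 3.45, 1.84 and 1.31 CPM in WT (log2 fold change -2.67, SE 0.38, adjusted p = 1.17e-05). Tnfrsf25, a receptor with a death domain, had 0.674, 0.493, 1.43, 1.41 and 1.92 CPM in KO and 7.27, 12.6, 10.2, 3.92 and 3.16 CPM in WT (log2 fold change -2.64, SE 0.50, adjusted p = 0.000732). Adam8, a membrane protease, had 0.658, 0.456, 0.781, 1.02 and 0.776 CPM in KO and 3.39, 4.56, 4.38, 2.83 and 2.99 CPM in WT (log2 fold change -2.29, SE 0.29, adjusted p = 2.02e-06). In all 3 the KO samples lay below the WT samples, and at these levels 1 CPM stands for about 46.1 to 88.6 counts, before TMM scaling. Tm6sf2 (-2.67, adjusted p = 0.00161), Gm42656 (-2.51, adjusted p = 3.15e-05), Crip3 (-2.34, adjusted p = 0.000133), Gm45182 (-2.17, adjusted p = 0.00908), AC124169.1 (-1.98, adjusted p = 0.00199), Gm37249 (-1.93, adjusted p = 0.0181) and Arc made up the rest. The call of Gm37249 was lost without L299 or L262 (adjusted p up to 0.0552).

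The same contrast under CP2 in the F samples, which share no animal with these, gave 511 calls (2%), 183 higher (0.715%) and 328 lower (1.28%). Of the genes called in M, 202 were called in F as well, all in the same direction, 68 higher and 134 lower: 7.90% of the M calls and 39.5% of the F calls. The direction was the same in F for 73.8% of the M calls and for 56.8% of all tested genes. Genes called higher in M had a median log2 fold change of 0.41 in M and 0.11 in F, and those called lower -0.50 and -0.11. Clec7a (2.04 in F), Ifit3 (1.10), Homer1 (-0.97), P4ha1 (-0.86) and Hsph1 (-0.57) were called in F too, with values beside those of M (2.30, 1.30, -0.94, -0.84 and -0.57). Immediate early genes had a median of -0.92 in F, with 1 call, Homer1. Microglia markers had a median of 0.02 in F, complement genes 0.06 and antigen presentation genes 0.11, with 0 of their 40 members called (edgeR; 7 at an unadjusted p under 0.05). Disease-associated microglia genes had a median of 0.17 with 2 calls, and interferon-stimulated genes 0.27 with 3. Cytosolic ribosomal proteins had a median of 0.04 in F with 0 of 82 called (edgeR; 8 at an unadjusted p under 0.05), and nuclear-retained RNAs one of 0.04 with 0 of 8 called (edgeR; 0 at an unadjusted p under 0.05).

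**Figure D5:**
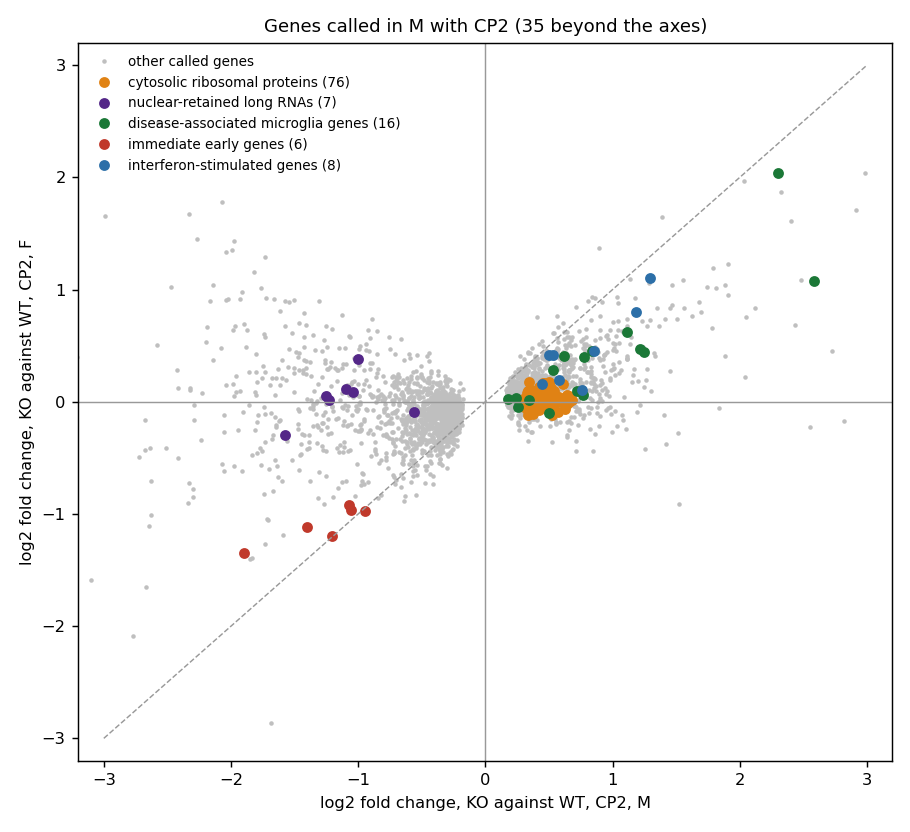
Log2 fold change of KO over WT under CP2 in M (x axis) and in F (y axis) for the genes called in M, with 5 lists coloured and 35 genes beyond the axes; the dashed line marks equal values. Ribosomal protein genes (orange) and nuclear-retained RNAs (purple) lie near 0 in F, whereas the called immediate early genes (red) are lower and most called interferon-stimulated genes (blue) higher in both.

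The difference itself was tested as M minus F. A total of 210 genes (0.82%) passed, 57 higher (0.223%) and 153 lower (0.598%), and 3641 genes had an unadjusted p under 0.05. Of the ribosomal proteins 19 had a more positive value in M, Rps12 among them (0.68 in M, 0.02 in F, difference 0.66, adjusted p = 0.0131). Of the nuclear-retained RNAs 4 had a more negative one, such as Meg3 (-1.25 and 0.05, difference -1.30, adjusted p = 0.0361). Adam1a (-1.31 in M, 0.16 in F), Naa40, an N-terminal acetyltransferase of histones (-0.51 and 0.32), and Thoc1, of the complex that exports mRNA (-0.70 and 0.15), had the smallest p on the lower side. Rps12, Sft2d2 and Glul had it on the higher side, the last at 0.26 in M and -0.20 in F. Of the 117 members of the microglial, complement, antigen presentation, interferon and immediate early lists 0 had a called difference with edgeR, DESeq2 or limma voom, and 29 had an unadjusted p under 0.05. With the share as a covariate 1 gene was called, Abcc4, without L266 and L291 0 (2894 at an unadjusted p under 0.05), and with 2 surrogate variables 0 (2265 at an unadjusted p under 0.05). In F the share was 7.54 ± 2.13% in KO and 6.02 ± 0.714% in WT. Leaving out 1 library gave 16 calls without L262, 63 without L292, 65 without L263, 82 without L289, 87 without L266, 96 without L291, 96 without L299, 139 without L259, 375 without L267 and 470 without L298.

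In the M samples with vehicle, 3 against 3, KO against WT gave 132 calls (0.516%), 58 higher (0.227%) and 74 lower (0.289%). Values beside those with CP2 were, for CP2 and then vehicle, 1.68 and 1.43 for Gfap, 1.37 and 1.27 for C4b, 0.84 and 0.36 for Ctss, -1.90 and -1.75 for Arc, -0.94 and -0.07 for Homer1, and -0.57 and -0.50 for Hsph1. With vehicle the list medians were -0.06 for microglia markers, 0.04 for complement, 0.17 for antigen presentation and 0.10 for disease-associated microglia genes, with 0 of the 66 members called (edgeR; 9 at an unadjusted p under 0.05). Interferon-stimulated genes had a median of 0.22 and immediate early genes of -0.65. Cytosolic ribosomal proteins had a median of -0.07 and nuclear-retained RNAs of 0.34 with vehicle. The difference, CP2 minus vehicle within M, was called for 507 genes, 1.98% of those tested, with 0.844% higher and 1.14% lower. It included 42 ribosomal proteins, all more positive with CP2, and 5 nuclear-retained RNAs, all more negative. Gria2 was lower with CP2 (-0.39) and at 0.35 with vehicle (difference -0.74, adjusted p = 0.00481). Crebzf, a bZIP cofactor, and Hook1, a linker of cargo to microtubules, had the same order (-0.54 against 0.19, and -0.65 against 0.40), and the phospholipase Pla2g16 the opposite one (0.33 against -0.46). With the share as a covariate 0 genes were called (2130 at an unadjusted p under 0.05), with 2 surrogate variables 0 (2109 at an unadjusted p under 0.05), and without L266 and L291 89. Leaving out 1 library moved the count most to 178 without L263, 189 without L262, 250 without L299, 268 without L266, 297 without L289 and 1 more without L292, and to 865 without L298.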

How the data were processed

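The authors deposited raw counts per gene, in 1 table of 36 samples and 56985 lines. The submitters' processing notes name STAR, HTSeq and GRCm39. Versions, the annotation release, the strand setting and read filters are not given in the sources used here. The labels' protocols describe a Trizol extraction kit, polyA selection and Illumina TruSeq library preparation. The 5 summary lines, between 12.0 and 19.6% of all reads in a sample, were left out of library sizes and tests. The line for reads outside annotated genes gave the share of reads outside genes. Symbols came from a GENCODE M21 table, which matched 52073 of 56980 identifiers. Promoters came from a RefSeq table, and no coordinates of the counted genes are given.

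Genes kept by filterByExpr (25601) were tested in R 4.3.3 with edgeR 4.0.16, using TMM library sizes and a robust quasi-likelihood fit of all 36 samples with 1 coefficient for each of 8 groups. P-values were adjusted by Benjamini-Hochberg within a contrast, with a threshold of 0.05. SE was taken as the log2 fold change over the root of its F statistic. CPM refers to TMM library sizes. Single values were compared by exact permutation tests (SciPy 1.17.1), genes on log2 CPM with a prior count of 2. Groups follow the genotype and treatment labels and the letter in the title. The edgeR p-values set a group difference against the spread between animals within groups, estimated over all 36 samples and moderated across genes. On simulated counts of this comparison (24787 genes tested), edgeR called 62% of 100 genes changed 1.5-fold and 81% of 100 changed 2-fold. It also called 4 unchanged genes. Whether these values hold for the real samples, where KO and WT differ in the share of reads outside genes, was not tested.

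Alternatives were DESeq2 1.42.0, limma voom 3.58.1, other size factors and filters, fewer samples, leaving out libraries, and as covariates the share of reads outside genes, the title number, a score of hippocampal CA markers or 2 surrogate variables (sva 3.50.0). The fit without ENSMUSG00000119584, that of the 16 M samples with the share as a covariate, and both differences without L266 and L291 were added after seeing the data. Named genes were Ndufs4, Xist and Ddx3y, up to 10 each way with the largest change (mean of at least 1 CPM, groups not overlapping), the 5 each way with the smallest p, up to 4 called members of each list with the smallest p, and 3 each way from both differences. Genes named outside this rule, after their values were seen, were Ciita, Ndufa6, Mrpl3, Itgax, Malat1, Cd74, H2-Ab1, Bst2, Ddx58, Ifih1, A2m, Grm3, Abcc4, Enpp6, Lamp5, Prkcd, Bmp4, mt-Nd1, mt-Co2 and Ttr. The members and the gene lists were chosen with earlier results of these data known. Values of some list members are not reported here.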

Additional observations from a re-analysis of the deposited data

Results flagged for a closer look

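Of the sets of 5 values read (each named gene or library measure in each of the 2 groups), 19 (7.54%) held a sample that stood far from the other 4 by Dixon's test at its 95% level. Chance gives this in about 5% of such sets. The test was not made on CPM as printed. L291 is not among the 19 for Tph2 or Slc6a4, where its CPM, given above, stood far above the other KO samples. Absence from this list thus does not mean that a sample lay near the others. Among KO samples, L291 had the highest Xist, 47.3 CPM, and the lowest Csf1r, 98.3 CPM, and Itgam, 6.11 CPM. L298 stood apart for Mrpl30 at 39.2 CPM, Srxn1 at 102 CPM, Wfs1 at 243 CPM, Adam1a at 3.32 CPM and Pla2g16 at 47.6 CPM. L266 did so for Abcb1a at 40.5 CPM and for the share of gene counts in ENSMUSG00000119584 at 1.01%, and L299 for H2-D1 at 60.2 CPM. Among WT samples, L262 stood apart for Ifit3 at 4.54 CPM and Mrpl30 at 32.6 CPM, L263 for Ddx3y at 61.8 CPM and Gabra2 at 77.4 CPM, L259 for Lum at 2.12 CPM and L267 for Adam1a at 4.06 CPM. In depth, L292 with 8.86e+07 and L262 with 7.75e+07 gene counts stood above the other 4 samples of their groups.

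For 20 of the named genes the genotype effect under CP2 differed between M and F at an adjusted p under 0.05 (edgeR's quasi-likelihood test of the difference). The difference in log2 fold change, M minus F, was positive for Eif3f (0.37), Rpl17 (0.45), Rps12 (0.66), Rps25 (0.44), Glul (0.46) and Sft2d2 (0.63). It was negative for Ccdc188 (-2.24), Gm42656 (-2.10), Gm45182 (-3.06), Zgpat (-0.49), Rian (-0.47), L3mbtl1 (-0.92), Mirg (-1.28), Meg3 (-1.30), Miat (-1.25), Adam1a (-1.47), Naa40 (-0.82), Thoc1 (-0.85), Crebzf (-0.50) and Hook1 (-0.73).

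Within M the genotype effect with CP2 differed from that with vehicle for 23 named genes by the same test. The difference, CP2 minus vehicle, was positive for Eif3f (0.55), Rpl17 (0.69), Rpl3 (0.49), Rps12 (0.79), Rps25 (0.57), Cox4i1 (0.50), Glul (0.40) and Pla2g16 (0.78). It was negative for Ccdc188 (-2.26), AC124169.1 (-2.54), Zgpat (-0.54), Hnrnph1 (-0.36), Rian (-0.52), L3mbtl1 (-0.92), Mirg (-1.498), Meg3 (-1.46), Miat (-1.73), Gria2 (-0.74), Pfkp (-0.42), Naa40 (-0.67), Thoc1 (-0.88), Crebzf (-0.73) and Hook1 (-1.05). Both sets of differences use the same KO and WT samples with CP2 and the letter M, so they are not independent of each other. The part that the share of reads outside genes plays in them is not known from these values: with this share as a covariate 1 gene was called in the first difference and 0 in the second (edgeR; 2130 at an unadjusted p under 0.05). The first count was also 0 when the hippocampal CA score was added, with 2 surrogate variables and without L266 and L291 (edgeR; 2910, 2265 and 2894 at an unadjusted p under 0.05, in that order), and 1 with the title number. The second was 4 with the CA score, 0 with the surrogate variables (2109 at an unadjusted p under 0.05) and 89 without L266 and L291.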

How the results depend on the processing

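The lower Ndufs4 level and the lower share of reads outside genes in KO kept their direction and stayed past the threshold of the exact permutation test in every alternative run for them, leaving out 1 library included. The Ndufs4 groups did not overlap, so its test could not fail when 1 library was left out, and those runs add nothing for this gene. The 2558 calls of KO against WT became 4009 when only the 10 samples compared were fitted, 3892 with the 16 M samples, 862 with that share as a covariate, 45 with this covariate in the 16 M samples and 1278 without L266 and L291. Leaving out 1 library gave 1465 to 2669. In the other alternatives the count stayed within 1.5 times, at 1916 to 3250. The 210 calls of M minus F became 655 with DESeq2, 329 at a mean of at least 1 CPM, 1 with the share and 1 with the title number as a covariate, 0 with the hippocampal CA score (edgeR; 2910 at an unadjusted p under 0.05), 0 with surrogate variables and 0 without L266 and L291 (2265 and 2894 in that order), and 16 to 470 with 1 library left out. The 507 calls of CP2 minus vehicle became 1099 with DESeq2, 89 without L266 and L291, 4 with the CA score, 1 with the share among the 16 M samples, 0 with surrogate variables and 0 with the share (2109 and 2130), and 178 to 865 with 1 library left out. Of the 123 genes named with values, 54 kept direction and side of the threshold with the share as a covariate in all 36 samples. With this covariate among only the 16 M samples 16 did, and 106 were weaker. Without L266 and L291 89 kept both, and with 1 library left out 92 to 116. The sign turned for the log2 fold change of Xist without L266 and L291 (-0.76) and, with 1 library left out, without L291 (-0.87, up to 6.61 without L262), for the log2 fold change of Malat1 with the share (0.0052) and for the log2 fold change of Ndufb8 with the share among the 16 M samples (-0.052). The cause of these changes was not tested, apart from fewer samples or genes being tested. No paired analysis was possible because the groups share no replicate number. Depth was at least 4.61e+07 gene counts in the samples compared.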
